A study of Mus musculus with 25 samples.

Results

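Irg1 (immune-responsive gene 1, also named Acod1), 1 of the 24411 gene symbols in the count files, was followed through all 9 conditions of the study by the counts on its own strand. The data are RNA-seq of 25 samples. Bone marrow-derived macrophages (BMDMs), grown from bone marrow of C57BL/6 mice for 4 days with 25 ng/ml of the macrophage growth factor M-CSF, gave 7 groups of 3 samples. These are control BMDMs cultured for 4 h, BMDMs that got IFN-γ (100 U/ml) and then LPS (100 ng/ml) for 1, 4, 12 or 24 h (IFN-γ-primed LPS), and BMDMs given 10 ng/ml IL-4 or 10 ng/ml IL-13 for 12 h. RAW264.7, a virus-transformed mouse macrophage line, gave 2 groups of 2 samples, a control cultured for 4 h and cells given 100 ng/ml LPS for 4 h without IFN-γ. The same 3 control samples serve every BMDM comparison with a control, whatever the time of treatment. BMDMs given LPS without IFN-γ were not analysed here, so cell type and IFN-γ cannot be told apart where RAW264.7 cells and BMDMs are compared. Mouse strain and medium differ there as well: the line derives from BALB/c mice and was grown in RPMI, and the BMDMs were grown in DMEM. Levels are CPM, in which the counts on genes of every library, without the ribosomal precursor Rn45s, are scaled to the same total. The study's methods describe the BMDM replicates as biological, from independent RNA, but neither they nor the labels say whether the replicates came from separate animals or cultures, and the p-values measure only the spread between these samples.

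Irg1 encodes the mitochondrial enzyme that takes cis-aconitate out of the tricarboxylic acid (TCA) cycle and turns it into itaconate. Resting macrophages make little of the enzyme, and LPS and interferons induce its gene strongly. Itaconate inhibits succinate dehydrogenase, slows the growth of bacteria that depend on the glyoxylate shunt, and alkylates cysteines of proteins such as KEAP1, which frees the transcription factor NRF2. NF-κB and IRF1 are known regulators of macrophage response genes of this kind.

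On mm10, Irg1 lies on the plus strand of chromosome 14 from 103046977 to 103056573 in GENCODE M21, where it has 5 exons. The coding sequence starts in exon 1 at 103047068 and ends in exon 5 at 103055505, and exon 5 also carries the 3′ UTR, from 103055506. The stretch of 215 bases before the GENCODE start, chr14:103046762-103046976 (plus strand, RefSeq, GRCm38.p6), is shown because it holds both an NF-κB-like and an IRF-like letter pattern next to the start of a gene that answered LPS. Capitals mark the matches to GGAANTTCC and AANNGAAA.
Irg1 promoter: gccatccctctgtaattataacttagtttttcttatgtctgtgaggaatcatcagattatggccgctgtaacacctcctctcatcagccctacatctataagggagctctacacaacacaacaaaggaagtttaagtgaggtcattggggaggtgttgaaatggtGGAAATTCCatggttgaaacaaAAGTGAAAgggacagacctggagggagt

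The NF-κB-like match GGAAATTCC (chromosome 14, 103046927 to 103046935) begins 50 bases before the GENCODE start, and the IRF-like match AAGTGAAA (103046949 to 103046956) begins 28 bases before it. Both strands were searched, and the matches do not overlap. Of 32851 stretches of the same length and place before RefSeq gene starts, 0.648% held GGAANTTCC and 18.9% held AANNGAAA. TTCNNNGAA, the core of STAT sites, was not matched in the Irg1 stretch and is held by 6.14% of all stretches. TATAAA and TGANTCA (the AP-1 pattern) were not matched either, and 9.75% and 5.97% of all stretches hold them. A match of letters is a description of the sequence and shows no binding.

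The files hold 2378639 to 3357300 counts on genes per library, of which 1502618 to 2532496 were left without Rn45s. Macrophage markers (7 genes, among them Csf1r, Cd68 and Lyz2) summed to 12668 to 29245 CPM in the BMDM libraries and to 7696 to 9679 CPM in the RAW264.7 libraries, where Mertk had 0 counts. T and B cell markers summed to at most 0.511 CPM, dendritic cell markers to at most 5.51 CPM and mast cell markers to at most 0.790 CPM, and erythroid markers had no count in any library. Neutrophil markers (6 of 7 listed genes had a row) summed to 10.1 to 36.2 CPM and fibroblast markers to 4.33 to 36.9 CPM in BMDMs. In these bulk samples, a change in the share of responding cells and a change of RNA per cell cannot be told apart. The share of antisense counts on Rn45s set libraries apart, which ran from 0.0386% to 0.122% in 12 BMDM libraries (the control and every IFN-γ-primed LPS library up to 12 h) and from 0.00603% to 0.0214% in the other 9 (24 h and both cytokines). The TMM scaling used for the edgeR tests moved the median of all genes by 0.19 (1 h), 0.53 (4 h), 0.31 (12 h) and 0.22 (24 h) on the log2 scale against plain library sizes. By plain library sizes, the 4 h calls split into 787 higher and 1907 lower genes, in place of 1086 and 1094.

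Irg1 rose from a trace to 1 of the most abundant transcripts of the IFN-γ-primed LPS-stimulated BMDMs, with its highest level at 4 h. The 3 control BMDM samples had 4, 10 and 8 counts of Irg1, that is 2.38, 5.96 and 4.66 CPM. At 1 h the samples had 4325, 4615 and 5403 CPM, and at 4 h they had 12655, 12082 and 10692 CPM. At 12 h the levels were 7623, 8062 and 8495 CPM, and at 24 h 3932, 4596 and 4464 CPM. No stimulated sample lay near a control sample, every 4 h sample lay above every sample of the other times, and the samples of 1 and 24 h overlapped. The 12 stimulated samples rest on 7638 to 21703 Irg1 counts each. Marker sums moved along with these groups. Neutrophil markers summed to 10.1 to 19.8 CPM in the control and to 26.0 to 36.2 CPM (1 h), 20.6 to 34.3 CPM (4 h), 23.4 to 23.6 CPM (12 h) and 20.2 to 22.8 CPM (24 h), without overlap with the control. Macrophage markers summed to 24619 to 26474 CPM in the control, 12668 to 13786 CPM after 4 h and 25991 to 29245 CPM after 24 h. The part of either in the Irg1 changes was not tested.

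**Figure D1:**
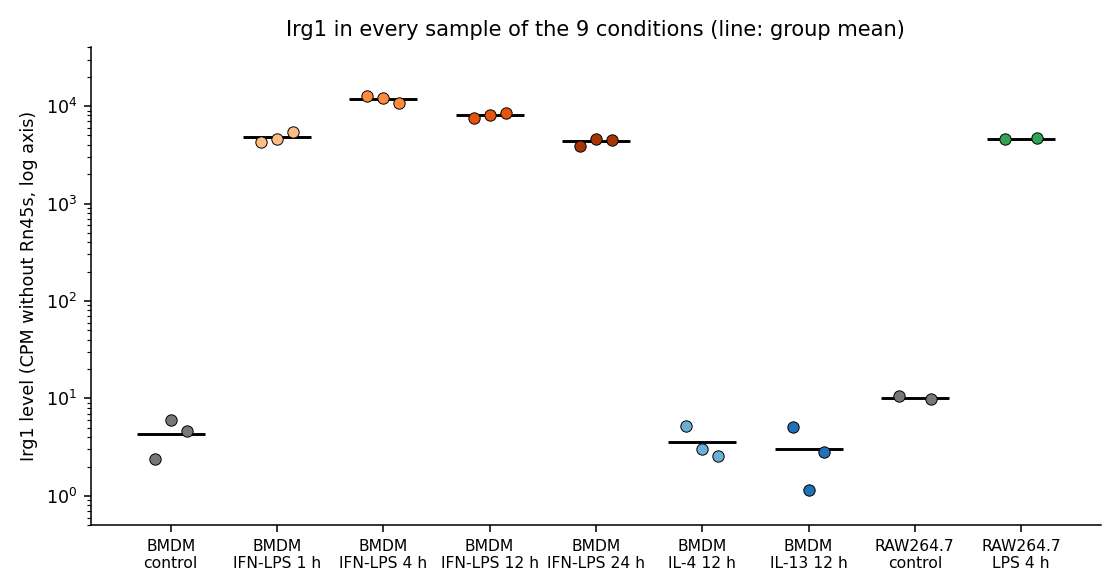
Irg1 level of each of the 25 samples (points, CPM without Rn45s, log axis) in the 9 conditions, with the group mean as a line. The 3 samples at 4 h of IFN-γ-primed LPS sit between 10692 and 12655 CPM, and all samples of control BMDMs, IL-4 and IL-13 sit under 6 CPM.

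Control BMDMs had a mean of 4.33 ± 1.81 CPM, and the means at the 4 times in order were 4781 ± 557, 11809.9 ± 1009.5, 8059.97 ± 436 and 4331 ± 351 CPM (SD, n = 3 in every group). Against the control, the log2 fold change was 10.27 after 1 h (adjusted p = 2.12e-41), 11.91 after 4 h (adjusted p = 1.01e-43), 11.14 after 12 h (adjusted p = 1.41e-42) and 10.16 after 24 h (adjusted p = 4.41e-41), each with an SE of 0.17, in the quasi-likelihood test of edgeR (Benjamini-Hochberg adjusted). A call needed an adjusted p no higher than 0.01 and a change of 1.5 or more on the log2 scale, in the manner of the study's own cutoffs for the time course. Irg1 was called higher at all 4 times, as were 5.04%, 11.4%, 8.87% and 7.93% of the 9568 genes tested, while 2.08%, 11.4%, 8.42% and 6.93% were called lower. Ordered by log2 fold change, Irg1 was number 6 (1 h), 11 (4 h), 19 (12 h) and 21 (24 h). These places depend on the prior count added to near-zero controls: with a prior count of 2 they were 1, 1, 5 and 6. Irg1 passed the filter on low counts only through the stimulated groups.

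The size of these changes is limited by the control, which holds 22 Irg1 counts in all. The exact 95% Poisson interval of that sum is 2.72 to 6.56 CPM. With it, the ratio of the mean at 4 h to the control, 2727, could lie anywhere from 1800.5 to 4350, and the ratio at 1 h, 1104, from 729 to 1761. The SE of edgeR does not cover all of this, and DESeq2 gave the same change at 4 h, 11.98, an SE of 0.32.

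Over time, Irg1 rose from 1 to 4 h and then decreased at each step. The step from 1 to 4 h was 1.64 on the log2 scale (SE 0.094, adjusted p = 4.52e-20, edgeR) and passed the call, as did 14% of all genes in either direction. By plain library sizes the same step was 1.30 and missed the fold cutoff, although its adjusted p was 3.92e-17. From 4 to 12 h Irg1 fell by 0.77 (SE 0.092, adjusted p = 1.44e-09) and from 12 to 24 h it fell by 0.98 (SE 0.093, adjusted p = 1.03e-11). Both falls passed the test but not the fold cutoff, which 9.66% and 1.29% of genes passed. The 24 h samples carry the lower antisense Rn45s share, and the control and the earlier times the higher one. The part of this in the last step and in the other comparisons of 24 h with these groups was not tested. Between 24 h and 1 h the difference was -0.11 (SE 0.092, adjusted p = 0.331, edgeR), short of the call that 12.1% of genes passed, and the spread of the samples did not separate these neighbours in the order of levels. On the CPM scale, the mean at 12 h was 68.2% and the mean at 24 h 36.7% of the mean at 4 h.

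At its highest, Irg1 took 1.07% to 1.27% of the counts left without Rn45s in each 4 h library, against 0.000238% to 0.000596% in the controls. With Rn45s kept in the total, the 4 h libraries had 7085 to 8777.5 CPM of Irg1. Per length (TPM, counts divided by GENCODE exon length, 2623 bases for Irg1, and scaled to the same total over 24046 genes with a length), its level was 7859 ± 1818 after 4 h and 2.42 ± 1.09 in control BMDMs (SD, n = 3 each). On this scale Irg1 stood at place 12 of all genes after 4 h, 16 after 12 h, 19 after 1 h and 23 after 24 h, and at place 8759 in the control. The wider SD at 4 h on this scale than in CPM belongs to the per-length total, which differs between the 3 libraries.

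Set beside the genes that define inflammatory (M1) macrophages, each taken as a percentage of its own mean CPM at 4 h, Irg1 had an intermediate time course. Irg1 was at 40.5% at 1 h, near Il1b (the cytokine IL-1β) with 43.4%. Tnf (TNF-α) and Irf1 were already at 112% and 90.0% at 1 h, while Nos2 (inducible nitric oxide synthase), Il6 and Il12b (the p40 chain of IL-12) were at 0.315%, 2.67% and 6.64%. At 12 h Irg1 was at 68.2%, Tnf at 20.1%, Irf1 at 24.2% and Il6 at 42.7%, and Il1b, Nos2 and Il12b stood at 109%, 121% and 199%. From 4 to 12 h the log2 change was -0.77 for Irg1, -2.54 for Tnf (SE 0.088, adjusted p = 5.38e-28) and -0.10 for Il1b (SE 0.10, adjusted p = 0.463), which turned to 0.12 by plain library sizes. The differences between genes were not tested. Of the 11 effector genes of inflammatory and alternative activation, 9 were tested in the time course. At 4 h, where 11.4% of all genes were called in each direction, 7 were called higher, the 5 named here with Hif1a (2.26), the hypoxia factor, and Tnfaip3 (6.02), an inhibitor of NF-κB, and Mrc1 was called lower.

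**Figure D2:**
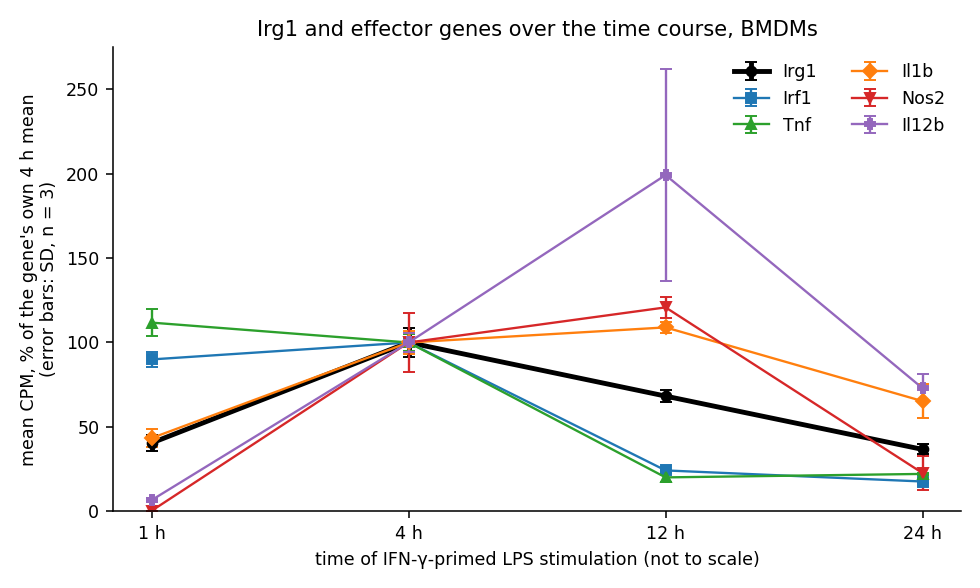
Mean CPM of Irg1 and 5 inflammatory genes at the 4 times of IFN-γ-primed LPS in BMDMs, as a percentage of each gene's own mean at 4 h (error bars SD, n = 3). Irg1 runs from 40.5% at 1 h through 100% to 68.2% and 36.7%, below Il12b, Nos2 and Il1b at 12 h and above Tnf and Irf1.

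IL-4 and IL-13, the cytokines of alternative (M2) activation, left Irg1 at the trace level of the control. With IL-4 the samples had 9, 5 and 4 counts, or 5.21, 3.05 and 2.56 CPM. With IL-13 they had 8, 2 and 5 counts, or 5.14, 1.14 and 2.82 CPM. Both groups overlapped the control, which ran from 2.38 to 5.96 CPM, and their means were 3.61 ± 1.41 and 3.03 ± 2.01 CPM (SD, n = 3 each). With so few counts Irg1 did not pass the filter of this 9-sample fit and was not among its 9252 tested genes, of which 2.22% were called higher and 1.64% lower with IL-4, and 2.98% and 2.38% with IL-13, at a log2 cutoff of 0.7. An exact permutation test of the mean CPM, two-sided, gave p = 0.7 for IL-4 and p = 0.5 for IL-13 against the control and p = 0.7 for IL-13 against IL-4, and 0.1 is the smallest p that 3 against 3 samples allow. The pooled levels, from 18 and 15 counts, had exact 95% Poisson intervals of 2.16 to 5.77 CPM with IL-4 and 1.65 to 4.86 CPM with IL-13, and a difference from the control within these intervals was not detectable at this depth. The cytokine samples carry the lower antisense Rn45s share and the control the higher one, and that difference and the culture time cannot be told apart from the cytokine.

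The comparison at equal time set Irg1 apart between both kinds of activation. At 12 h it was higher with IFN-γ-primed LPS than with IL-4 by 11.43 (SE 0.17, adjusted p = 1.07e-57) and than with IL-13 by 11.76 (SE 0.17, adjusted p = 6.38e-58) on the log2 scale in edgeR's fit of all 25 samples, where 16% of genes were called in each comparison. The sizes are limited by the cytokine groups, which hold 18 (IL-4) and 15 (IL-13) Irg1 counts in all. Irg1 did not pass the filter on low counts through these groups. Here the IFN-γ-primed LPS samples carry the higher antisense Rn45s share and the cytokine samples the lower one, which cannot be told apart from the treatment. Markers of alternative activation moved the other way: Arg1 (arginase 1) had 0 counts in all BMDM controls and 29.9 CPM with IL-4 and 43.5 CPM with IL-13 as group means. Chil3 (a chitinase-like protein) rose by 7.12 with IL-4 and 8.07 with IL-13, and Mrc1 (the mannose receptor) by 2.45 and 2.80. Mrc1 fell by 2.13 at 4 h of IFN-γ-primed LPS, and Tnf fell by 0.72 with IL-13 (-0.68 and under the cutoff by plain library sizes). Retnla, a further marker, had a mean of at most 2.03 CPM in any group and was not tested.

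In RAW264.7 cells, Irg1 rose with LPS alone. The control samples had 23 and 21 counts, or 10.6 and 9.83 CPM, and the LPS samples had 9860 and 11150 counts, or 4580 and 4661 CPM. The groups did not overlap, and their means were 10.2 ± 0.513 and 4621 ± 57.5 CPM (SD, n = 2 each). The log2 fold change was 9.0 (SE 0.11), with an adjusted p in the edgeR quasi-likelihood test too small for the software to represent. An exact permutation test of 2 against 2 samples cannot go below 0.333. In this line the cutoff was 2 on the log2 scale, and 2.39% of 9406 genes were called higher and 0.829% lower, and Irg1 was number 12 by log2 fold change (5 with a prior count of 2). The ratio of the means was 453, and the Poisson interval of the 44 control counts allows 338 to 624.

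Stimulated RAW264.7 cells had less Irg1 than BMDMs at the same time. The difference from BMDMs at 4 h of IFN-γ-primed LPS was -2.05 (SE 0.11, adjusted p = 5.3e-27), a call shared by 38.6% of genes in either direction. By plain library sizes it was -1.35 (adjusted p = 4.52e-20) and missed the fold cutoff of 1.5. Against 1 h the difference was -0.38 (SE 0.10, adjusted p = 6e-04) and against 24 h -0.25 (SE 0.10, adjusted p = 0.0243), neither past the fold cutoff, which 35.2% and 31.9% of genes passed. By plain library sizes the last 2 differences were -0.05 and 0.09, so the place of stimulated RAW264.7 cells beside 1 and 24 h BMDMs depends on the scaling. Unstimulated RAW264.7 cells had 10.2 CPM against 4.33 CPM in control BMDMs, a difference of 0.97 (SE 0.35, adjusted p = 0.0112) that missed the call passed by 33.2% of genes. The antisense Rn45s share was 0.0199% to 0.0283% in RAW264.7 libraries, below that of control, 1 h and 4 h BMDMs. Its part in these differences was not tested. By mean CPM, the order of levels began with 4 h and 12 h of IFN-γ-primed LPS, followed by 1 h, RAW264.7 LPS and 24 h, whose neighbours overlapped in plain CPM. With TMM scaling RAW264.7 LPS stood below 24 h, with means of 3895 and 4619 CPM. The RAW264.7 control came next, and the BMDM control, IL-4 and IL-13 were last, with overlapping samples.

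The change itself was tested between the cell types. In the fit of all samples, the change of Irg1 in RAW264.7 cells with LPS minus that in BMDMs with IFN-γ-primed LPS was -3.02 on the log2 scale (SE 0.37, adjusted p = 2.15e-10, edgeR, 12.4% of genes called in either direction). For Irf1 the same difference was -5.56 (SE 0.23, adjusted p = 5.17e-33): in their own fits Irf1 was 5.62 higher in BMDMs at 4 h, and in RAW264.7 cells its change was 0.15 (SE 0.20, adjusted p = 0.591), or -0.03 by plain library sizes, with means of 27.8 CPM in the control and 27.3 CPM with LPS. Tnf changed by 8.54 and 4.48 in the separate fits, with a tested difference of -4.16 (SE 0.17, adjusted p = 5.17e-33). Il1b changed by 11.44 and 11.99, and its difference of 0.41 (SE 0.68, adjusted p = 0.715) missed the test with a wide error. Its control samples held only 2 to 8 counts in BMDMs and 1 to 2 in RAW264.7 cells, which limits these sizes. The stimulated means of Il1b were 5458 CPM in BMDMs at 4 h and 2715 CPM in RAW264.7 cells. Nos2 reached a mean of 328 CPM in BMDMs at 4 h and 7.32 CPM in stimulated RAW264.7 cells, and Il12b had no count in stimulated RAW264.7 cells against 2281 CPM in BMDMs.

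**Figure D3:**
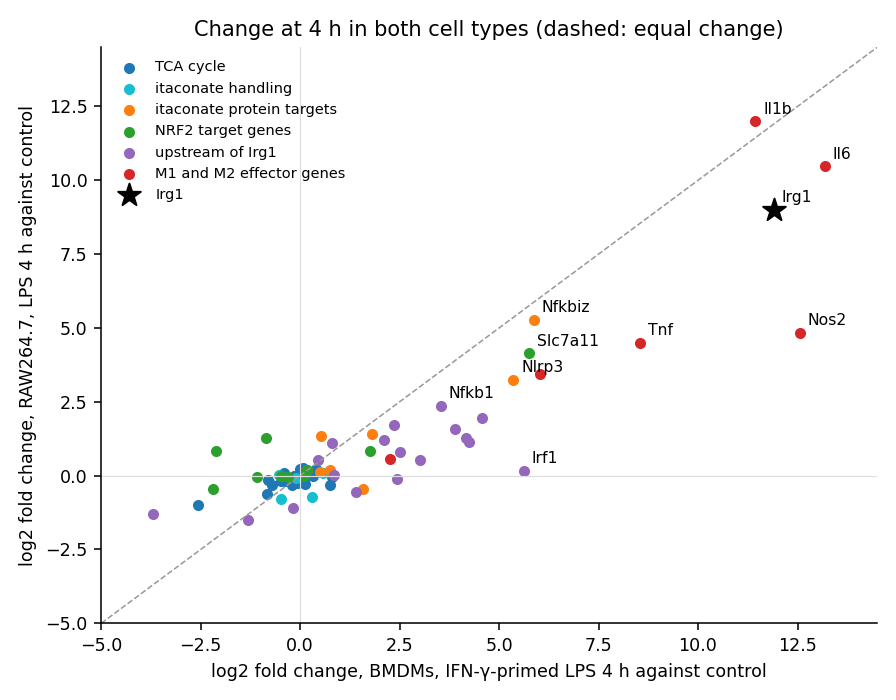
Log2 fold change at 4 h in BMDMs with IFN-γ-primed LPS (x axis) and in RAW264.7 cells with LPS alone (y axis) for Irg1 (star) and the tested members of 6 gene lists (points, coloured by list), with equal change as a dashed line. Irg1 lies at 11.91 and 9.0, Irf1 at 5.62 and 0.15.

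The genes known to act upstream of Irg1 were read as a list of 19 receptors, signal carriers and transcription factors. At 4 h, 12 of them were called higher and 1 lower, beside 11.4% of all genes in each direction, with a median log2 fold change of 2.43 against -0.08 over all genes. At the other times 6 (1 h), 8 (12 h) and 8 (24 h) were higher, with none lower, beside 5.04%, 8.87% and 7.93% of all genes called higher. Irf1, the interferon regulatory factor that binds IRF sites, rose by 5.13 at 1 h and 5.62 at 4 h and was 3.35 and 2.81 higher at 12 and 24 h. Jak2, the kinase of the IFN-γ receptor, rose by 1.98, 4.57, 3.91 and 3.43 over the 4 times. Cd14, the LPS co-receptor, rose by 3.89 at 4 h and Myd88, the adaptor of Toll-like receptors, by 3.0. Stat2 and Irf9, parts of the type I interferon factor, rose by 4.17 and 2.10 at 4 h, and Stat2 stood at -0.79 at 1 h. The NF-κB genes Nfkb1 and Rela rose by 3.53 and 2.43 at 4 h. Cebpb rose by 2.36 at 4 h. Irf8 rose by 2.51 at 4 h and was at -1.22 at 12 h, a value of -1.53 and past the cutoff by plain library sizes. Ifnb1 (interferon β) had 0 counts in the controls and means of 63.3 CPM at 1 h and 16.8 CPM at 4 h. It entered the fit only through stimulated groups and could not be called lower.

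The lipopolysaccharide receptor Tlr4 stood at -1.31 at 4 h (adjusted p = 4.9e-09), short of the fold cutoff, and by plain library sizes at -1.84, past it. Tfeb, a lysosomal transcription factor reported to drive Irg1, fell by 3.69 at 4 h and stood at -0.84 and -0.92 at 12 and 24 h. The receptor chains Ifngr1, Ifngr2, Ifnar1 and Ifnar2 and the adaptor Ticam1 were called at none of the 4 times, with changes at 4 h of -0.17, 0.45 (-0.07 by plain library sizes), 0.86, 1.40 and 0.81. With IL-4 and IL-13, Jak2 rose by 1.19 and 1.68 and Irf1 by 0.85 and 0.89, while Cd14 fell by 1.89 and, with IL-13, fell by 1.92. In RAW264.7 cells 1 of the 18 tested members, Nfkb1, passed the call, with 2.36, beside 2.39% of all genes called higher, and 2 members passed without control replicate 1, control replicate 2 or LPS replicate 1. There Cebpb, Cd14 and Jak2 stood at 1.70, 1.57 and 1.96, under the fold cutoff of 2.

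The TCA cycle genes around the substrate of Irg1 moved little. Of the 21 members, 0 were called higher and 1 lower at 4, 12 and 24 h, and none at 1 h. Over all genes, 11.4%, 8.87% and 7.93% were called higher at 4, 12 and 24 h, and 11.4%, 8.42% and 6.93% lower. At 1 h these shares were 5.04% and 2.08%. The median log2 fold change of the list at 4 h was -0.05, beside -0.08 over all genes. The member called was Idh1, the cytosolic isocitrate dehydrogenase, which fell by 2.58 at 4 h (SE 0.22, adjusted p = 3.68e-14) and stood at -3.09 at 12 h and -2.37 at 24 h. By plain library sizes 1 member was called at 1 h and 2 each at 12 and 24 h. There were also 2 calls at 12 and 24 h without control replicate 2, at 12 h without its replicate 1, and at 24 h without its replicate 1 or 3. The subunits of succinate dehydrogenase, the enzyme that itaconate inhibits, stood at -0.29 (Sdha), 0.13 (Sdhb), -0.01 (Sdhc) and 0.10 (Sdhd) at 4 h, none past the test, and all 4 were below 0 by plain library sizes. Sdhb was 1.0 higher at 24 h (SE 0.11, adjusted p = 3.15e-11), under the fold cutoff. No TCA cycle member was called with IL-4, IL-13 or in RAW264.7 cells. Over all genes, 2.22%, 2.98% and 2.39% were called higher there and 1.64%, 2.38% and 0.829% lower, so no call among 21 members lies near these shares.

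**Figure D4:**
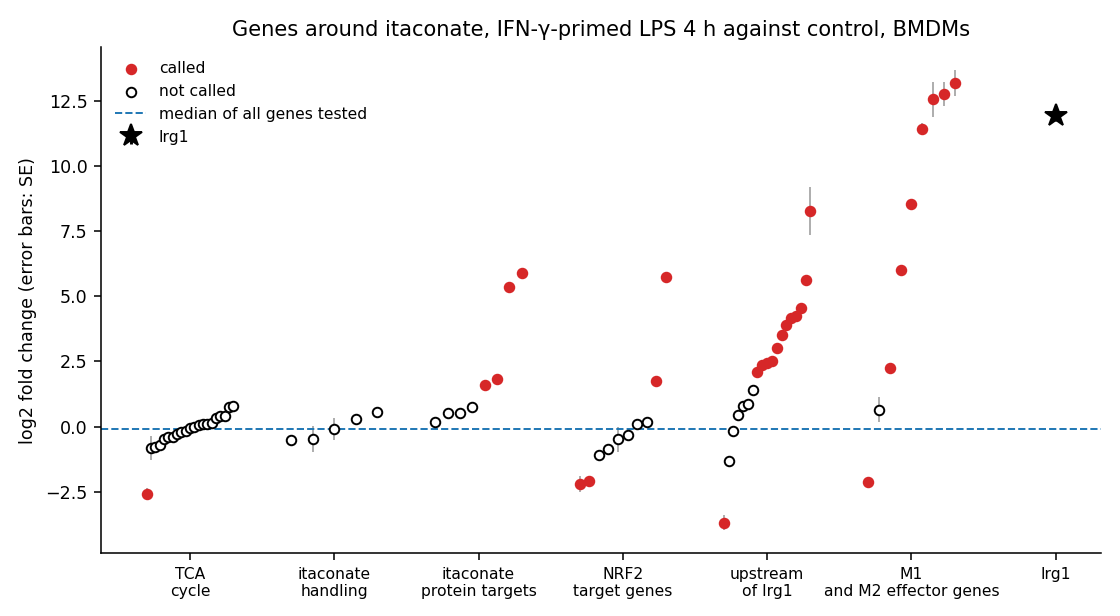
Log2 fold change at 4 h of IFN-γ-primed LPS against control in BMDMs (error bars SE) for the tested members of the 6 lists and for Irg1 (star). Filled points passed the call, and the dashed line is the median of all genes tested, -0.08. Of the TCA cycle genes 1 is filled, of the upstream genes 13.

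Genes that carry or break down itaconate and its relatives (8 listed, 5 tested) gave 1 call in the time course. Per time, 5.04% to 11.4% of all genes were called higher and 2.08% to 11.4% lower, so 1 call lies near these shares. Slc25a10, the mitochondrial dicarboxylate carrier, rose by 1.94 at 24 h (SE 0.11, adjusted p = 2.38e-20), from 63.5 to 209 CPM as group means, and stood at 0.29 at 4 h (-0.24 by plain library sizes). Auh and Clybl, enzymes of the breakdown of branched and itaconate-derived acyl-CoA, had group means of at most 13.6 and 7.64 CPM. Auh rose by 1.19 with IL-4 (adjusted p = 0.00676, edgeR) and 1.21 with IL-13 (adjusted p = 0.00385, edgeR), calls that DESeq2 did not make. Of all genes, 2.22% and 2.98% were called higher in these comparisons. The call with IL-4 was lost without any 1 of the 6 samples, and the call with IL-13 without control replicate 1 or 2 or IL-13 replicate 2 or 3. Slc25a1 and Slc25a11, the citrate and oxoglutarate carriers, stood at 0.57 and -0.52 at 4 h and were never called. Sugct and Slc13a3 had means of at most 1.28 and 0.856 CPM, Oxgr1, the itaconate receptor, had no count, and none of these 3 was tested.

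Of 8 proteins that itaconate or its derivatives are reported to act on, 4 had genes called higher at 4 h and none lower, beside 11.4% of all genes in each direction, with a list median of 1.17. Nfkbiz (IκBζ), whose induction itaconate derivatives restrain, rose by 7.36 at 1 h and 5.88 at 4 h and was 3.90 and 3.68 higher at 12 and 24 h. Nlrp3, the inflammasome sensor, rose by 5.17, 5.36, 3.87 and 3.79. With IL-4 and IL-13 both were called lower, Nfkbiz at -1.32 and -1.34 and Nlrp3 at -1.61 and -1.63, of which DESeq2 called 1 in each comparison. Over all genes, 1.64% and 2.38% were called lower there. Both were called higher in RAW264.7 cells, by 5.26 and 3.23, beside 2.39% of all genes. Tet2, a DNA demethylase, rose by 1.82 at 4 h, and Keap1 by 1.59. Tet2 and Keap1 stood at 1.29 and 1.06 by plain library sizes and missed the fold cutoff, which left 2 calls.

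Of 11 NRF2 genes, 10 were tested. At 4 h, 2 were called higher and 2 lower, near the 11.4% of all genes called in each direction, and their median was -0.40. Slc7a11, the cystine carrier, rose by 3.46, 5.75, 5.16 and 4.45 over the 4 times and by 4.14 in RAW264.7 cells. Hmox1 (heme oxygenase 1) fell by 2.10 at 4 h (SE 0.14, adjusted p = 2.25e-18) and was 1.97 higher at 12 h, from a control mean of 209 CPM through 33.8 to 661 CPM. Gclc, a subunit of the glutathione-forming ligase, fell by 2.20 at 4 h and stood at -0.46 at 12 h. At 12 and 24 h, 3 members were higher and none lower, and at 24 h 5 were called without control replicate 1. Over all genes, 8.87% and 7.93% were called higher at 12 and 24 h, and 8.42% and 6.93% lower. Slc7a11 shared its highest mean, at 4 h, with Irg1, while the mean of Hmox1 was higher at 12 and 24 h than at 4 h. Nfe2l2, the gene of NRF2 itself, was called at no time and stood at 0.10 at 4 h (-0.43 by plain library sizes).

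Genes with a pattern like that of Irg1 were sought among the 10612 genes past the filter of the fit of all samples, by Pearson's r over the 9 condition means of log2 CPM. The points share their libraries and the same split into stimulated and other conditions, so high values are common: 105 genes had an r over 0.9. The 6 highest were Il1b (0.995), Ccl3 (0.992), Nod2 (0.991), Hcar2 (0.989), Il1a (0.985) and Socs3 (0.983). Il1b and Il1a code for IL-1β and IL-1α, Ccl3 for a chemokine, Nod2 for a sensor of bacterial peptidoglycan, Hcar2 for a receptor of hydroxybutyrate, and Socs3 for a suppressor of cytokine signalling.

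The size of the swings separated these genes. After centring, the largest difference of a condition mean from that of Irg1 was 1.48 for Il1b, 1.94 for Il1a, 2.59 for Socs3, 2.74 for Ccl3, 2.78 for Hcar2 and 3.93 for Nod2 on the log2 scale. For Il1b and Il1a it fell in the RAW264.7 control, where samples had 1 to 2 and 0 counts. In the BMDM control, IL-4 and IL-13 samples, Hcar2 had 0 to 1 counts and Socs3 0 to 4. So near the floor, means depend on the prior count added. Nod2 had 5.13 ± 1.75 CPM in control BMDMs and 84.1 ± 10.5 CPM after 4 h (SD, n = 3 each), so its range was narrower than that of Irg1. From 4 to 12 h Hcar2 changed by -0.77 (SE 0.13, adjusted p = 2.85e-06), Nod2 by -0.74 and Il1a by -0.84, beside -0.77 for Irg1, while Ccl3 and Socs3 changed by -1.61 and -1.19. All were picked by means that include these times, so a step like that of Irg1 is in part given by the choice. Socs3 had 564 ± 22.8 CPM after 1 h and 523 ± 53.1 CPM after 4 h (SD, n = 3 each), and with TMM scaling its step from 1 to 4 h turned to 0.23 (SE 0.094, adjusted p = 0.0417, edgeR), short of the test's threshold. Over the 25 samples in place of the means, the same 6 genes had the highest r. By Spearman's rho none of them was among the first 6, and by the root mean square difference 3 were (Il1b, Il1a and Socs3).

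**Figure D5:**
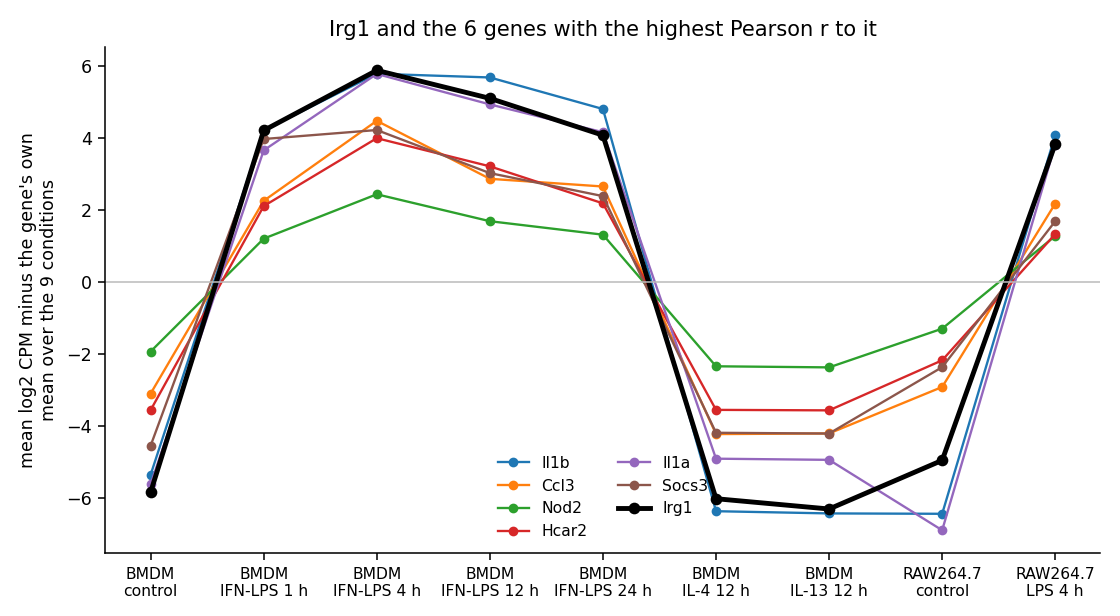
Mean log2 CPM (TMM-scaled, prior count 2) of Irg1 (black) and of the 6 genes with the highest Pearson r to it, each minus its own mean over the 9 conditions. Lines only join the points of a gene. On this scale all 7 genes are highest at 4 h of IFN-γ-primed LPS (Socs3 and Il1b are not in plain CPM), and Nod2 has the smallest range.

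The promoter stretches of these genes, taken at the same place, were searched for the same letters. Of the 5 with an entry, Il1b and Ccl3 held AANNGAAA, Socs3 held TTCNNNGAA, and none held GGAANTTCC. Over all stretches the shares were 18.9%, 6.14% and 0.648%, so the lack of GGAANTTCC among 5 genes does not set them apart from other genes.

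The genes described here on the side before Irg1 had smaller changes than Irg1. The nearest genes in RefSeq are the lncRNAs Gm41235, which overlaps the first 1729 bases of the RefSeq gene, and Gm41236, 3380 bases beyond its end, and neither has a row in the count files. The nearest gene with a row on that side is the lncRNA 4933432I03Rik, 13208 bases before Irg1. It had a mean of at most 4.02 CPM in BMDMs and rose by 3.62 in RAW264.7 cells to 13.1 CPM. Kctd12, the nearest protein-coding gene before Irg1, was 1.76 higher at 1 h, 1.52 at 4 h, 2.82 at 24 h and 3.17 in RAW264.7 cells, and by plain library sizes 0.99 at 4 h.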

How the data were processed

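RNA-seq read counts of 25 samples (7 groups of 3 BMDM samples, 2 groups of 2 RAW264.7 samples) were analysed, grouped by the labels. The authors depleted rRNA, made strand-specific libraries, used Trimmomatic 0.33 for trimming and STAR 2.5.1 for alignment to mm10, and deposited raw whole-number counts per gene (unstranded and for each strand). The submitters' processing notes also name CASAVA 1.8.2 and DESeq2. The annotation release is not given in the sources used here. The sense-strand column was used, and the rows for reads outside genes were left out.

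Rn45s was left out. CPM are counts over the remaining total, so precision is set by 1502618 to 2532496 counts per sample, and exact Poisson intervals cover counting error only. Tests used edgeR 4.0.16 in R 4.3.3 (filterByExpr, TMM, robust quasi-likelihood fit, 1 mean per group, Benjamini-Hochberg per contrast), in separate fits of the time course, of IL-4 and IL-13, of RAW264.7 and of all samples. SEs were obtained by dividing the size of a log2 fold change by the root of its F statistic. Calls needed an adjusted p no higher than 0.01 and a log2 change no smaller than 1.5 (0.7 for IL-4 and IL-13, 2 for RAW264.7). Where Irg1 failed the filter, exact permutation tests (SciPy) were used. Gene lists are described by counts and medians.

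Named genes are Irg1, the 6 genes most like it, succinate dehydrogenase subunits, list members with at least 1 CPM in a group among itaconate handling and upstream genes, the 3 TCA cycle, NRF2 and target members with the largest called change at 4 h, all effector genes and neighbours. Some genes that this rule names are not reported here. Keap1, Nfe2l2, Slc13a3, Oxgr1, Sdhb at 24 h and Kctd12 were added after their values were seen. Members and lists were chosen with earlier results of these data known.

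Alternatives were DESeq2 1.42.0, no TMM, no filter beyond 1 count, unstranded counts, Rn45s kept, only the groups compared, a replicate block, each sample left out, a prior count of 2, and 3 other measures of likeness. Comparisons of neighbours in the order of levels, the fit of all samples for IL-4 and IL-13 and levels per length were added after seeing the data. Lengths are GENCODE M21 exon unions for 98.5% of symbols. The scripts were tested on simulated counts. No pair of replicates was the same library counted again: the chi-square per degree of freedom was 1.30 to 4.53 over 23 pairs. These values cannot tell whether 2 libraries came from the same RNA or culture.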

Additional observations from a re-analysis of the deposited data

Results flagged for a closer look

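The change of Irg1 at 4 h differed between the cell types by a test of the difference itself: it was -3.02 on the log2 scale for RAW264.7 cells with LPS minus BMDMs with IFN-γ-primed LPS (SE 0.37, adjusted p = 2.15e-10, edgeR's quasi-likelihood test). RAW264.7 cells got no IFN-γ, so the cell type, with its strain and medium, and the priming cannot be told apart. The value was -2.58 without TMM and -3.31 to -2.72 with any sample left out.

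Reads on the strand opposite to Irg1, which enter only the refits on unstranded counts, numbered 6 to 72 in the stimulated samples and 0 in the control, IL-4, IL-13 and RAW264.7 control samples. With at most 23 Irg1 counts in each of the latter, a share like that of the stimulated samples was not detectable there. They made up 0.0600% to 0.406% of the counts on both strands of Irg1, beside 1.02% to 1.41% over all genes. Gm41235, an lncRNA that overlaps the start of Irg1, has no row in the count files, and its part in these counts was not tested.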

How the results depend on the processing

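Of 513 refits of 19 Irg1 changes, 509 kept the direction and the side of the call. Without TMM, Irg1 from 1 to 4 h was 1.30 and RAW264.7 LPS against 4 h -1.35, both then under the fold cutoff, RAW264.7 LPS against 24 h turned to 0.0934 (from -0.25), and 2 in place of 4 itaconate targets were called at 4 h. Without control replicate 2, IL-4 against control in the fit of all samples turned to 0.0539 (from -0.24). Irg1 passed the filter of that fit only through groups outside this comparison. Its IL-4 and IL-13 changes there, which are among the 19, are therefore descriptions and no test. Of the 6 genes most like Irg1, 0 remained by Spearman's rho and 3 by the root mean square difference. With 1 sample left out, Irg1 at 4 h ranged from 11.62 to 12.21, from 1 to 4 h from 1.57 to 1.74, RAW264.7 LPS against 24 h from -0.32 to -0.19, IL-4 from -0.60 to 0.0539, and 3 to 4 targets were called. Keeping Rn45s lowered the mean at 4 h to 7952 CPM and TMM raised it to 16083. Counts of list members elsewhere moved by over 1.5 times in 30 of 684 refits, all counts of at most 5.

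Equal replicate numbers showed no steady pairing of the samples: the deviations of equal-numbered samples correlated by 0.05 on average in the time course, from -0.11 to 0.28. For unequal numbers the mean was -0.02, so a weak pairing of some samples is not excluded. With the replicate block, Irg1 at 4 h was 11.92, and no Irg1 call changed. In the 9-sample fit of IL-4 and IL-13, Irg1 has no value with the block, since it fails the filter there. Low control counts (22 in all) limit the size of each change, and 2 RAW264.7 samples per group limit its p.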
